A study of Mus musculus with 12 samples.

Results

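The genes described here are 8 that the transcription factor p53 is known to activate, Phlda3, Cdkn1a, Mdm2, Ccng1, Bax, Bbc3, Trp53inp1 and Sesn2. RNA was measured in the distal ileum, the last stretch of the small intestine, of inbred BALB/c mice. They were taken by symbol from a table of 45808 genes, all 8 were found, and all 8 were among the 15025 genes whose mean normalized count was at least 10. The set was chosen by a measured value, the difference of Phlda3 between the 2 groups of these libraries, and filled with other known targets of p53. The group differences of the 8 genes are therefore given as descriptions, with a standard error (SE) and without a test. One group of 6 libraries came from animals treated with Porphyromonas gingivalis, an oral bacterium associated with periodontitis, and the other 6 came from controls that received phosphate-buffered saline (PBS). By its title, the series asks how the bacterium leads to inflammation of the gut. The labels state neither the age, sex and number of animals nor how much of the bacterium was given, by which route and for how long. They also do not say that each library came from its own animal, so p-values measure the spread between these samples, which may be technical.

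p53 is held at a low level in unstressed cells, mainly because Mdm2, itself a p53 target, marks it for degradation. DNA damage and other stresses release p53, which then switches on genes that stop the cell cycle, trigger apoptosis, adjust metabolism or shut p53 down again. In the small intestine the p53 response is best known from crypt cells after irradiation, where it drives both cell cycle arrest and apoptosis. Phlda3 encodes a small protein with a pleckstrin homology domain that binds membrane phosphoinositides and keeps the growth kinase Akt from reaching the membrane.

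Values are normalized counts, meaning reads per gene divided by 1 size factor per library, and depth ran from 6553306 to 9875045 recovered reads in the P. gingivalis libraries and from 7610970 to 10378841 in the PBS libraries. A total of 3 libraries went against the tissue label. Fabp6, the bile acid binding protein that marks the distal ileum, stood at 2.52 and 16.0 in P. gingivalis replicates 1 and 5 and at 4.32 in PBS replicate 6, and at 11246 or more in the other 9 libraries. These libraries had 26745, 21996 and 16938 of Fabp1, which is highest in more proximal small intestine, and no other library exceeded 1821. Beside results that rest on these 3 libraries, values without them are also given.

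The promoter windows of the genes are shown because p53 acts by binding DNA near its targets, and they let the letters upstream of Phlda3 be set beside those of its companions. The windows come from RefSeq on GRCm38.p6, run from 250 bases before to 50 bases after an annotated start, and were available for 7 of the 8 genes. Each is written 5′ to 3′ on the strand of its gene. Capitals mark each exact match to a decamer that makes up only part of the p53 response element. This pattern of 10 letters is its own reverse complement, so reading 1 strand covers both. The window of Phlda3 (chr1:135765835-135766134, plus strand) held no complete match, although its last 8 letters fit the start of the decamer. In the GENCODE transcript that runs on past the window the next letters do not complete it, a check made after the window was seen. The upstream start of Cdkn1a (chr17:29090729-29091028, plus strand) held 2 matches, and those of Mdm2 (chr10:117710709-117711008, minus strand), Ccng1 (chr11:40755237-40755536, minus strand) and Bax (chr7:45466849-45467148, minus strand) held 1 each.
Phlda3: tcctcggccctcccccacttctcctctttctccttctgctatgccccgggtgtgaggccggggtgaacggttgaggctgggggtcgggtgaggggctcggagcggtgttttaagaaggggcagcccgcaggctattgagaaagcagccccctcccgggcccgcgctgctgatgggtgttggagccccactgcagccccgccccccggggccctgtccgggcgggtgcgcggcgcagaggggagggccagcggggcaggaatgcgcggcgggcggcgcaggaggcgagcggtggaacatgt
Cdkn1a, upstream start: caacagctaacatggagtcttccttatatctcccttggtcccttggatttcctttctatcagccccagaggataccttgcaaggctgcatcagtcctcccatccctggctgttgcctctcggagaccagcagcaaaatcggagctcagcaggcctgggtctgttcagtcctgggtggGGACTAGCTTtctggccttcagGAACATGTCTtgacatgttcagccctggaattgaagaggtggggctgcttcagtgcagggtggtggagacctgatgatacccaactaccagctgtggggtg
Mdm2: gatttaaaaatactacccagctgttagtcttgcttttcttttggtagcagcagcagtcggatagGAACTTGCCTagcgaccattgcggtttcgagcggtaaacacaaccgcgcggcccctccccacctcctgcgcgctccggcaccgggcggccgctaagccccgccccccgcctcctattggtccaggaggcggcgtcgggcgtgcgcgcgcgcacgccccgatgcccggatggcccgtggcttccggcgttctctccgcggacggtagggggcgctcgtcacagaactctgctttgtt
Ccng1: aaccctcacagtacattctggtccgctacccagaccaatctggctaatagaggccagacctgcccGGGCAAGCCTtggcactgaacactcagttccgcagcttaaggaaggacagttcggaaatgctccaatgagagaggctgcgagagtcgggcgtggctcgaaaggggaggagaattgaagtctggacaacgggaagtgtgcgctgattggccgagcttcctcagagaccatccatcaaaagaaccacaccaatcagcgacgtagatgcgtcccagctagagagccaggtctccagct
Bax: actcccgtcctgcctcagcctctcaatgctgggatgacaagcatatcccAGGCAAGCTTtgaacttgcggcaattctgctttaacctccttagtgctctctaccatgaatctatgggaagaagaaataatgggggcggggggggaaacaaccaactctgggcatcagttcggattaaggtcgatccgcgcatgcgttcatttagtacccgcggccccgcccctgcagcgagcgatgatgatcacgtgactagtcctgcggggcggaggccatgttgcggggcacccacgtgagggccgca

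The matches of Cdkn1a began 73 and 51 bases before the start, with 12 bases between them, and the match of Mdm2 began 186, that of Ccng1 185 and that of Bax 201 bases before the start. An exact decamer was present in 8.36% of all 32851 promoter windows in the table. A closely spaced pair of decamers, each with at most 1 mismatch, was present in 2.71% of all windows. Among the windows of the 7 genes, only the upstream start of Cdkn1a and the start of Ccng1 held such a pair. The downstream start of Cdkn1a, the 3 starts of Bbc3 and the start of Sesn2 held none. The shorter core CATG, which lies inside many p53 sites and reads the same on both strands, occurred once in the Phlda3 window, after the start. In Cdkn1a it lay inside the decamer nearer the start and at 2 other places. The Bax window held it 3 times and the Sesn2 window 1 time, and the remaining windows of the 7 genes did not hold it. CATG was found in 61.1% of all windows. These are matches of letters, and binding was not measured.

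Phlda3 stood at 23.5 at the lowest, 25.1 at the median and 41.8 at the highest in the P. gingivalis libraries, against 33.4, 68.5 and 79.8 in the PBS libraries. The groups overlapped through P. gingivalis replicate 6, the highest of its group, which lay above PBS replicate 5 at 33.4 and just below PBS replicate 6 at 42.1. The other 5 P. gingivalis libraries, from 23.5 to 28.5, lay below every PBS library. The mean was 27.98 ± 7.01 in P. gingivalis and 61.0 ± 18.7 in PBS (SD, n = 6 each). The difference of -1.06 (SE 0.23), in log2(normalized count + 1) with PBS subtracted from P. gingivalis, is the value that led to the choice of the genes. Over the 15025 genes tested, 87 had a difference this low or lower, Phlda3 included, and 0.646% of all genes had a difference of -1 or lower. Between 19 and 96 reads per library lay behind these values. Phlda3 is annotated as a protein coding gene on the plus strand of chromosome 1 from 135766119 to 135769136 (GRCm38).

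Without the 3 libraries with little Fabp6 the Phlda3 difference was -1.09 (SE 0.27). Leaving out each library in turn gave differences from -1.22, without PBS replicate 5, to -0.97, without PBS replicate 4. In whole tissue, fewer cells of a type and less RNA per cell cannot be told apart.

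**Figure D1:**
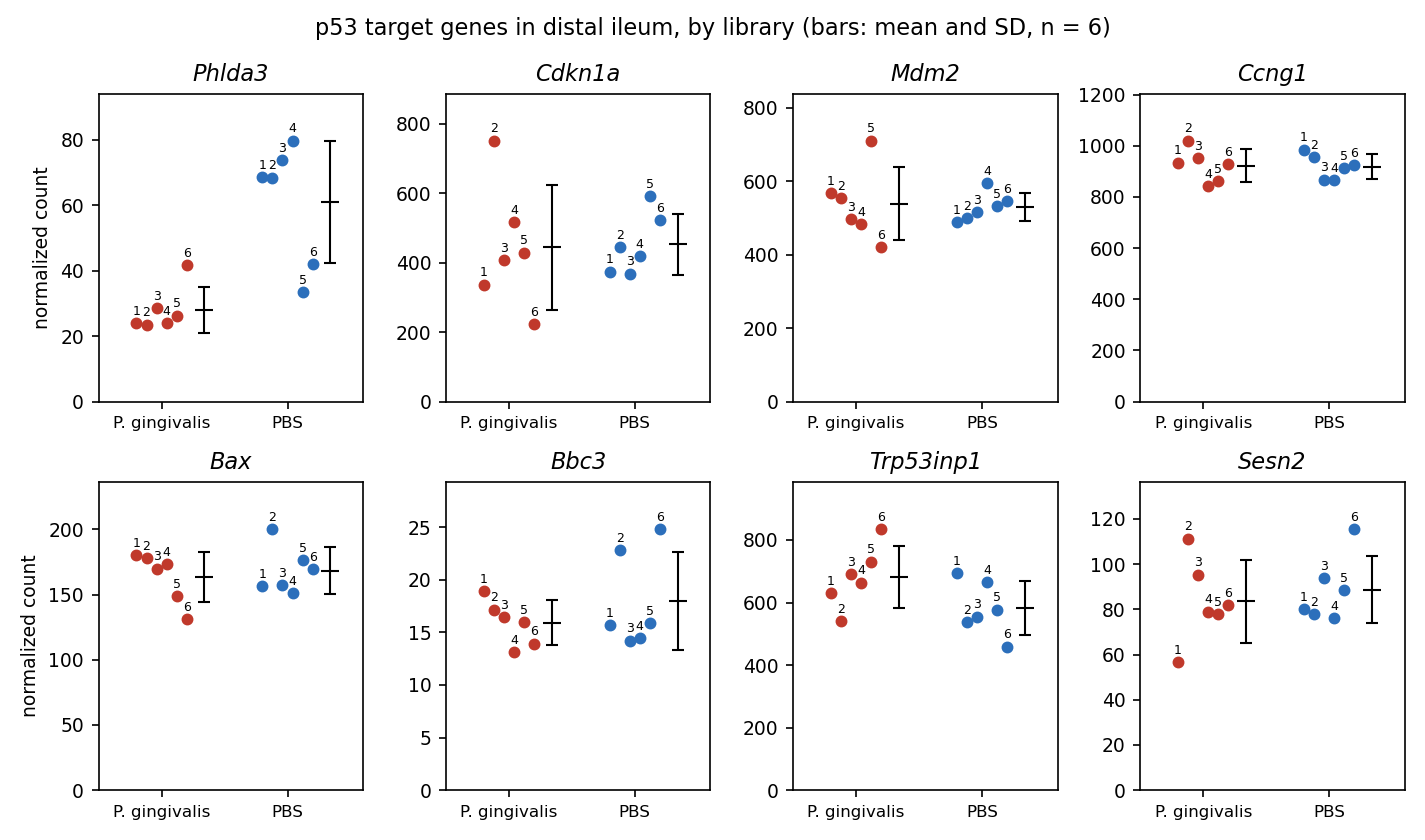
Normalized counts (y axis) of the 8 p53 target genes in the 6 P. gingivalis and 6 PBS libraries, 1 panel per gene; points are libraries with their replicate number and bars give the mean and SD. Phlda3 lies between 23.5 and 41.8 in P. gingivalis and between 33.4 and 79.8 in PBS, while the groups of the other 7 genes also overlap, with Cdkn1a and Mdm2 spread more widely in P. gingivalis.

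Mdm2 and Ccng1 had nearly equal means in both groups. Mdm2, the ubiquitin ligase that degrades p53, ranged from 421 through a median of 525 to 711 in P. gingivalis libraries, against 488, 524 and 594 in PBS libraries. Its difference was 0.01 (SE 0.11), and -0.11 (SE 0.10) without the 3 libraries with little Fabp6, a turn of sign. The spread was wider in P. gingivalis, where replicate 5 was the highest and replicate 6 the lowest of all 12 libraries. Ccng1, cyclin G1, which helps a phosphatase to activate Mdm2, ranged from 843 through 931 to 1021 in P. gingivalis, against 866, 919 and 985 in PBS. It was the steadiest of the 8 genes, with a difference of 0.00 (SE 0.07) and SDs of 0.10 log2 units in P. gingivalis and 0.07 in PBS.

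Cdkn1a encodes p21, the cyclin-dependent kinase inhibitor through which p53 arrests the cell cycle. It ranged from 223 through a median of 418 to 751 in P. gingivalis libraries, against 368, 432 and 592 in PBS libraries, and the groups overlapped broadly. P. gingivalis replicates 2 and 6 held the highest and the lowest value of the 12 libraries. The mean was 443 ± 180 in P. gingivalis and 453 ± 87.9 in PBS (SD, n = 6 each), a difference of -0.11 (SE 0.23). Without the 3 libraries with little Fabp6 it was 0.00 to 2 decimals.

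The apoptosis members are Bax, which opens the mitochondrial outer membrane, and Bbc3, whose product PUMA binds the inhibitors that hold Bax back. Bax ranged from 131 through 172 to 180.3 in P. gingivalis, against 151, 163 and 200.3 in PBS, with a difference of -0.04 (SE 0.10). Bbc3 was the weakest member and ranged from 13.2 through 16.2 to 18.9 in P. gingivalis, against 14.2, 15.8 and 24.8 in PBS, with a difference of -0.14 (SE 0.19). PBS replicates 2 and 6 were the highest for Bbc3. Both genes overlapped between the groups. The 11 to 23 reads per library behind Bbc3 leave a wide counting error, and its difference was smaller than its SE. No detection limit was computed for it.

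The stress and metabolism members are Trp53inp1 and Sesn2. Trp53inp1, a nuclear stress protein that promotes autophagy and cell death, ranged from 540 through 678 to 835 in P. gingivalis, against 459, 566 and 695 in PBS. Its difference of 0.23 (SE 0.12) was the only one of the 8 above 0.02, and the groups overlapped. Without the 3 libraries with little Fabp6 it was 0.16 (SE 0.13). Sesn2, a sestrin that restrains the growth kinase complex mTORC1 and also responds to the stress factor ATF4, ranged from 56.7 through 80.3 to 111 in P. gingivalis, against 76.0, 84.3 and 116 in PBS. Its difference was -0.10 (SE 0.16) with all libraries and 0.13 without the 3 libraries with little Fabp6, a turn of sign within the error.

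Over the 8 genes the median difference was -0.07, against 0.00 over all genes tested, and 5 were below 0. In limma 0 of the 8 were called at an adjusted p of 0.05, where 0% of the 15025 genes were. No member had groups that did not overlap, which held for 0.166% of all genes tested (0.0932% higher and 0.0732% lower in P. gingivalis). Before adjustment, 560 genes had a limma p under 0.05. On the recovered reads edgeR called 0% of 14907 genes, and 542 had a p under 0.05 before adjustment. The calls of DESeq2 came to 0.151% of 20596 genes (0.0146% higher and 0.136% lower), and limma with sample weights called 0.133% of genes (0.00666% higher and 0.126% lower). Phlda3 was the 1 member among the DESeq2 calls, limma also called it without P. gingivalis replicate 6, and it was called in 2 of the 24 settings run. Nothing is read from these calls because the same contrast chose the gene.

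Levels between genes can be compared per length of exons. Per kilobase of annotated exon, Ccng1 was the highest in both groups, at 263 ± 18.3 normalized counts in P. gingivalis and 262 ± 13.5 in PBS. Cdkn1a, Mdm2, Trp53inp1 and Bax came next, at 125, 106, 105 and 104 in P. gingivalis and at 128, 104, 89.8 and 107 in PBS, and Mdm2 and Bax lay within 1 SD of each other in both groups. Trp53inp1 lay within 1 SD of both in P. gingivalis and was the lowest of these 4 in PBS. Sesn2, at 24.1 ± 5.28 in P. gingivalis and 25.5 ± 4.27 in PBS, stood above Phlda3 in P. gingivalis and below it in PBS. Phlda3 was at 17.9 ± 4.50 in P. gingivalis and 39.2 ± 11.996 in PBS, and Bbc3 was the lowest of the 8 at 7.50 ± 0.997 in P. gingivalis and 8.46 ± 2.18 in PBS. Reads counted here for Sesn2 may include those of the overlapping gene model Gm12981, which averaged 2.68 normalized counts, and Cdkn1a and Bax also share their span with another annotated gene.

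The wider pathway was read from lists of p53 regulators and of other p53 targets for cell cycle, apoptosis, metabolism and DNA repair, with 63 of 69 genes tested. The regulator Cop1 was not found under that symbol, and the other genes not tested were below the filter. Of the 63 tested genes, limma called 0 higher and 0 lower, and neither edgeR nor DESeq2 called any. An unadjusted limma p under 0.05 was found for 5, all of them among the 49 tested targets, against 560 of all 15025 genes tested. The median difference of the 49 tested targets was -0.06, with 34 below 0 (69.4%, against 51.1% of all genes tested), and that of the 14 tested regulators was 0.08, with 11 above 0. No other target was as low as Phlda3, and their differences lay between -0.58 and 0.51.

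Trp53, the gene of p53 itself, ranged from 117 through 139 to 213 in P. gingivalis libraries, against 90.9, 131 and 163 in PBS libraries. Its difference was 0.26 (SE 0.17, limma adjusted p = 0.992), with overlapping groups. Mdm4, a partner of Mdm2 that blocks p53, averaged 1257 ± 105 in P. gingivalis and 1156 ± 42.1 in PBS (SD, n = 6 each), a difference of 0.12 (SE 0.07, limma adjusted p = 0.992). The p53 relatives Trp63 and Trp73 and the p53 stabiliser gene Cdkn2a were below the filter.

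The other targets with the smallest p in each direction did not pass, all with a limma adjusted p of 0.992. Among those with lower means, Siva1, an apoptosis-inducing factor, averaged 38.5 ± 4.59 in P. gingivalis and 52.6 ± 10.3 in PBS (SD, n = 6 each). Lpin1, a phosphatidate phosphatase of lipid synthesis, averaged 109.5 ± 20.8 in P. gingivalis and 158 ± 38.7 in PBS. Gadd45a, a growth arrest gene, differed by -0.32 (SE 0.12), and Dram1, a lysosomal protein of autophagy, by -0.58 (SE 0.25). Among those with higher means, Zmat3, an RNA-binding zinc finger protein, averaged 154 ± 23.7 in P. gingivalis and 120 ± 31.5 in PBS. Pcna, the replication clamp, differed by 0.15 (SE 0.09) and Ptprv, a phosphatase gene, by 0.51 (SE 0.30).

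A further list held genes of the PHLDA family and of the AKT pathway, on which the Phlda3 protein acts. Of its 20 tested genes, Phlda1 included, limma called 0, 0 had an unadjusted p under 0.05, and the median difference was 0.05. These are RNA levels, and the activity of Akt was not measured. Gsk3b and Mtor, kinases downstream of Akt, differed by 0.22 (SE 0.16) and 0.11 (SE 0.09). Irs1, an adaptor of the insulin receptor, differed by -0.23 (SE 0.21), and Inppl1, a phosphoinositide phosphatase, by -0.03 (SE 0.10). Phlda1, a family member of Phlda3, averaged 24.3 ± 6.07 in P. gingivalis and 24.9 ± 7.76 in PBS (SD, n = 6 each). Phlda2 had 0 to 3 reads per library, so no difference was detectable. Of 14 tested ATF4 stress targets limma called 0, none had an unadjusted p under 0.05, 11 were below 0 and the median was -0.11.

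**Figure D2:**
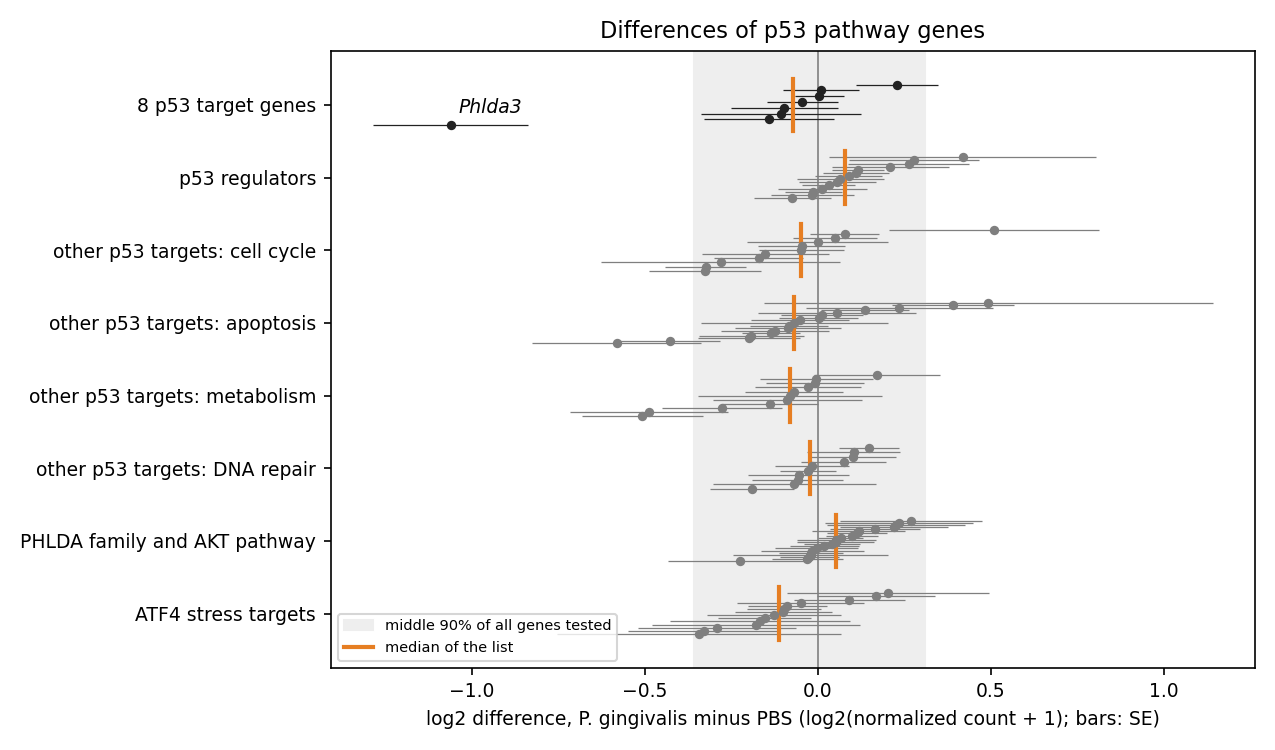
Log2 difference, P. gingivalis minus PBS (x axis, bars give the SE), for each tested gene of the p53 pathway lists (rows), with the median of each list in orange and the middle 90% of all tested genes shaded. Phlda3 lies at -1.06, outside the shaded band, and the list medians lie between -0.11 and 0.08.

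Whether the 8 genes varied together from library to library was asked with deviations from the group means, which do not use the contrast between groups. Of 28 pairs, 13 correlated positively and 15 negatively, with Pearson's r from -0.70 to 0.61 and a median of -0.04. The lowest was between Phlda3 and Cdkn1a, with r = -0.70 (permutation p = 0.00166, Benjamini-Hochberg adjusted p = 0.0465 over the 28 pairs, two-sided) and Spearman's rho of -0.79 (permutation p = 0.00134, adjusted p = 0.0375). Within their groups, libraries with more Cdkn1a thus had less Phlda3: P. gingivalis replicate 6 held the highest Phlda3 and the lowest Cdkn1a of its group, and PBS replicate 5 the lowest Phlda3 and the highest Cdkn1a. Without these 2 libraries, the farthest from the median of Phlda3, r was -0.44, so over the 12 libraries the size of the relation rests on them. The adjusted p reached 0.317 when single libraries were left out. In the 9 libraries with high Fabp6, r was -0.78 (exact permutation p = 0.00729) and its adjusted p of 0.204 did not pass. There rho was -0.85 (exact permutation p = 0.00694), and r was -0.92 without PBS replicate 5 and P. gingivalis replicate 2, the farthest there.

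No other pair passed after adjustment. Bax and Trp53inp1 had r = -0.70 (permutation p = 0.0176, adjusted p = 0.170) and rho = -0.74 (permutation p = 0.0110), and r was -0.64 without the 2 libraries farthest from the Bax median. Phlda3 and Trp53inp1 had r = 0.60 (permutation p = 0.0512, adjusted p = 0.222) and rho = 0.64 (permutation p = 0.0366), and r was 0.72 without the 2 farthest libraries. Mdm2 and Cdkn1a, both classical targets, had r = 0.38 (permutation p = 0.361, adjusted p = 0.653) and rho = 0.22 (permutation p = 0.548), and r was -0.04 without the 2 farthest.

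**Figure D3:**
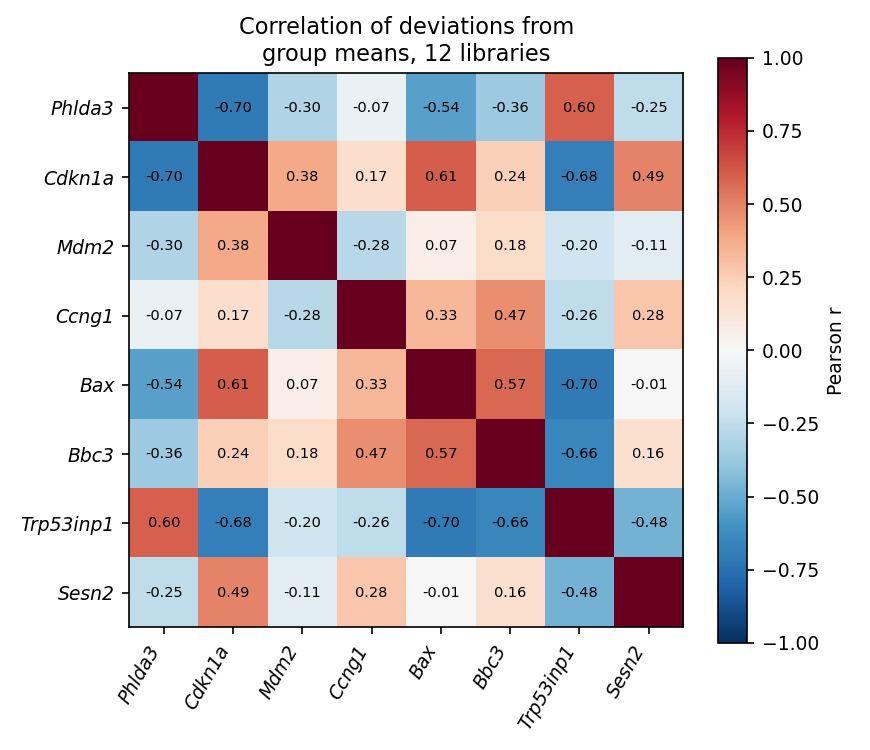
Pearson's r between the 8 genes (rows and columns) over 12 libraries, computed on deviations from the group means of log2(normalized count + 1); red is positive and blue negative. The lowest cell is Phlda3 with Cdkn1a at -0.70 and the highest off the diagonal is Cdkn1a with Bax at 0.61.

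The genes whose pattern over the 12 libraries was most like that of Phlda3 were Car5b (Pearson's r = 0.96), Igfbp6 (0.95), Tusc5 (0.95), Cdo1 (0.95), Slc7a10 (0.95), Paqr9 (0.94), Ghr (0.94) and Pla2g16 (0.94). They were picked as the highest of 15025 genes, and these r values include the difference between the groups, so no test is given, and 40 genes had an r of at least 0.9. The other 7 p53 targets had r between -0.30 and 0.02 with Phlda3. Car5b averaged 19.4 ± 13.7 in P. gingivalis and 80.2 ± 34.7 in PBS, Igfbp6 averaged 27.4 ± 18.2 in P. gingivalis and 75.0 ± 37.7 in PBS, and Cdo1 averaged 158 ± 49.4 in P. gingivalis and 357 ± 108 in PBS (SD, n = 6 each). On deviations from the group means, the highest were Fzd6 (0.93), Fggy (0.92), Pcolce2 (0.90), Lgals12 (0.90), Anxa1 (0.90), Igfbp6 (0.90), Acss3 (0.90) and Gpx8 (0.89), and Igfbp6 was the 1 gene in both sets.

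**Figure D4:**
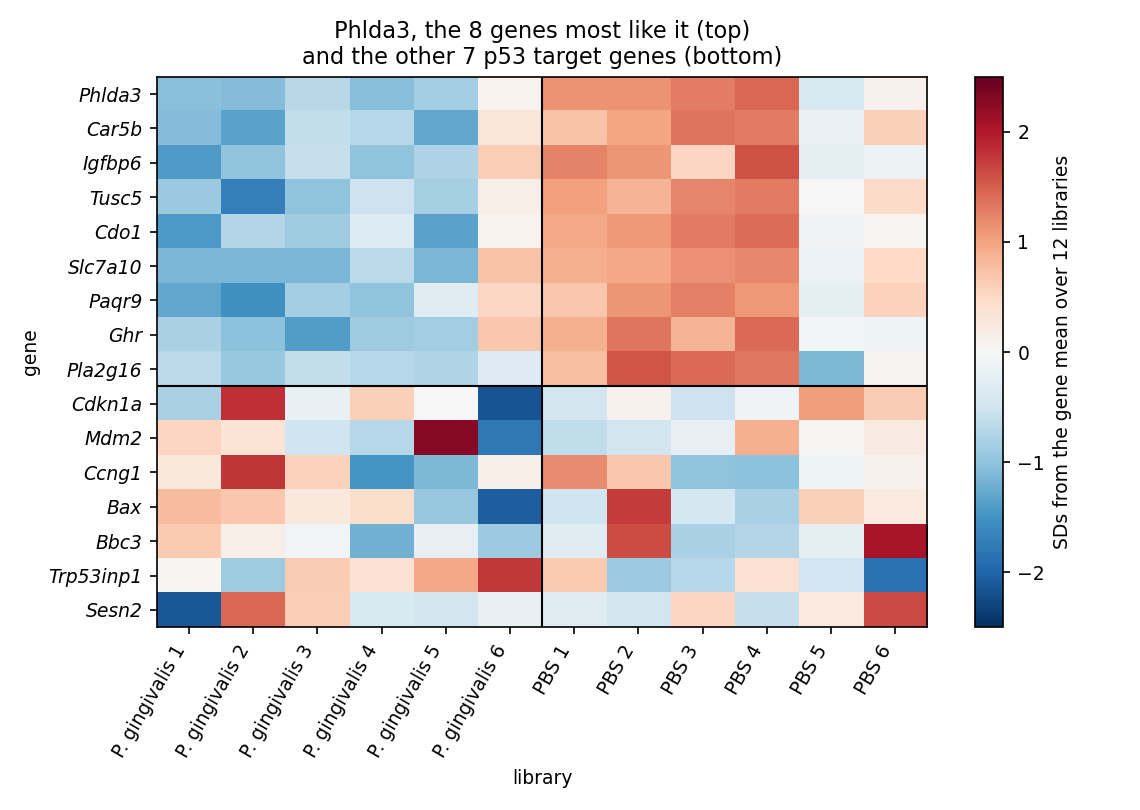
Phlda3 with the 8 genes of highest Pearson's r over the 12 libraries (upper rows) and the other 7 p53 target genes (lower rows); columns are libraries, and color gives log2(normalized count + 1) in SDs from the mean of each gene. In the upper rows P. gingivalis replicate 6 is the highest of its group and PBS replicates 5 and 6 are the lowest of theirs, while in the lower rows the highest and lowest libraries vary from gene to gene.

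Markers of fat and of the outer gut wall also had lower means in P. gingivalis, without passing the test. All 16 tested genes of the adipocyte list had lower means in P. gingivalis (median difference -2.59), and their summed normalized count ran from 3040 to 8826 in P. gingivalis libraries, against 6734 to 19072 in PBS libraries. Pck1, with a mean of 2643 in P. gingivalis and 2785 in PBS, was the largest part of this sum in both groups. The sum was 8826 in P. gingivalis replicate 5 and 6768 in replicate 1, where Adipoq was low or had no reads. Adipoq, the fat cell hormone adiponectin, had 0 reads in P. gingivalis replicates 1, 2 and 3, which allows up to 3 reads per library, and Plin1, Cfd, Retn and Lep each had 0 reads in 3 P. gingivalis libraries. In the 3 libraries without Adipoq reads, Phlda3 stood at 23.9, 23.5 and 28.5. It was as low in P. gingivalis replicate 4, at 23.9, where Adipoq was 106, and stood at 26.3 in replicate 5, where Adipoq was 6.86. Adipoq was highest of its group in P. gingivalis replicate 6, at 254, and lowest of its group in PBS replicate 5, at 132, as Phlda3 was. On deviations from the group means, which leave out the group contrast, the 16 adipocyte genes had r with Phlda3 from -0.40 (Pck1) to 0.76 (Fabp4), with a median of 0.49 and 4 below 0, and the median over all genes tested was 0.01.

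All 6 tested mesothelial genes also had lower means in P. gingivalis (median -1.05), with a summed count from 6456 to 13376 in P. gingivalis libraries and from 8849 to 12107 in PBS libraries. Krt19, which epithelium also expresses, makes up most of this sum. Upk3b, a defining gene of the layer that covers the gut, averaged 21.7 ± 7.78 in P. gingivalis and 70.8 ± 31.3 in PBS and Lrrn4 averaged 9.18 ± 2.33 in P. gingivalis and 28.3 ± 12.3 in PBS (SD, n = 6 each), and Wt1 and Bnc1 were below the filter. Upk3b was the 1 gene of the list whose groups did not overlap, from 11.3 to 28.7 in P. gingivalis and from 30.9 to 119.96 in PBS (limma adjusted p = 0.215). Over all genes tested, 0.0732% had groups that did not overlap and were lower in P. gingivalis. All 14 smooth muscle genes had negative differences (median -0.49), summing from 17681 to 59391 in P. gingivalis and from 26466 to 43986 in PBS, and none was at 0. Fibroblast genes had negative differences in 9 of 10 cases (median -0.23), summing from 8324 to 16751 in P. gingivalis and from 10245 to 14124 in PBS. The highest P. gingivalis sum of both lists was that of replicate 6. No other P. gingivalis library exceeded 35163 for smooth muscle or 11537 for fibroblast genes. Other lists did not all have negative differences. All 8 B cell genes had positive differences (median 0.59), summing from 195 to 988 in P. gingivalis and from 179 to 858 in PBS, and so did 10 of 13 crypt proliferation genes (median 0.15). The groups of the crypt gene Mcm3 did not overlap either, from 245 to 306 in P. gingivalis and from 150 to 234 in PBS (limma adjusted p = 0.446). This held, higher in P. gingivalis, for 0.0932% of all genes tested. The 6 distal ileal genes all had negative differences (median -0.89), and the 8 proximal genes had 3 positive and 5 negative ones (median -0.18). In these 8 lists limma called 0 genes.

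Within groups, the mean of each list was correlated with each of the 8 genes, over 8 marker lists and so 64 relations. For Phlda3, r was 0.58 with the adipocyte list (permutation p = 0.00944, adjusted p = 0.201; rho = 0.57, permutation p = 0.0329), and 0.17 without the 2 libraries farthest from the Phlda3 median, so this relation rests on them. With the mesothelial list r was 0.72 (permutation p = 0.0229, adjusted p = 0.204; rho = 0.62, permutation p = 0.0567), and 0.69 without those 2 libraries. In the 9 libraries with high Fabp6, r was 0.58 with the adipocyte list (exact permutation p = 0.0528; rho = 0.63, exact permutation p = 0.0674), and 0.44 without PBS replicate 5 and P. gingivalis replicate 2, the farthest there. With the mesothelial list it was 0.74 (exact permutation p = 0.0580; rho = 0.45, exact permutation p = 0.245), and -0.01 without those same libraries, so it rests on them. None of the 64 passed after adjustment over the 12 libraries. The part of fat, mesothelium or muscle in the Phlda3 difference was not tested.

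**Figure D5:**
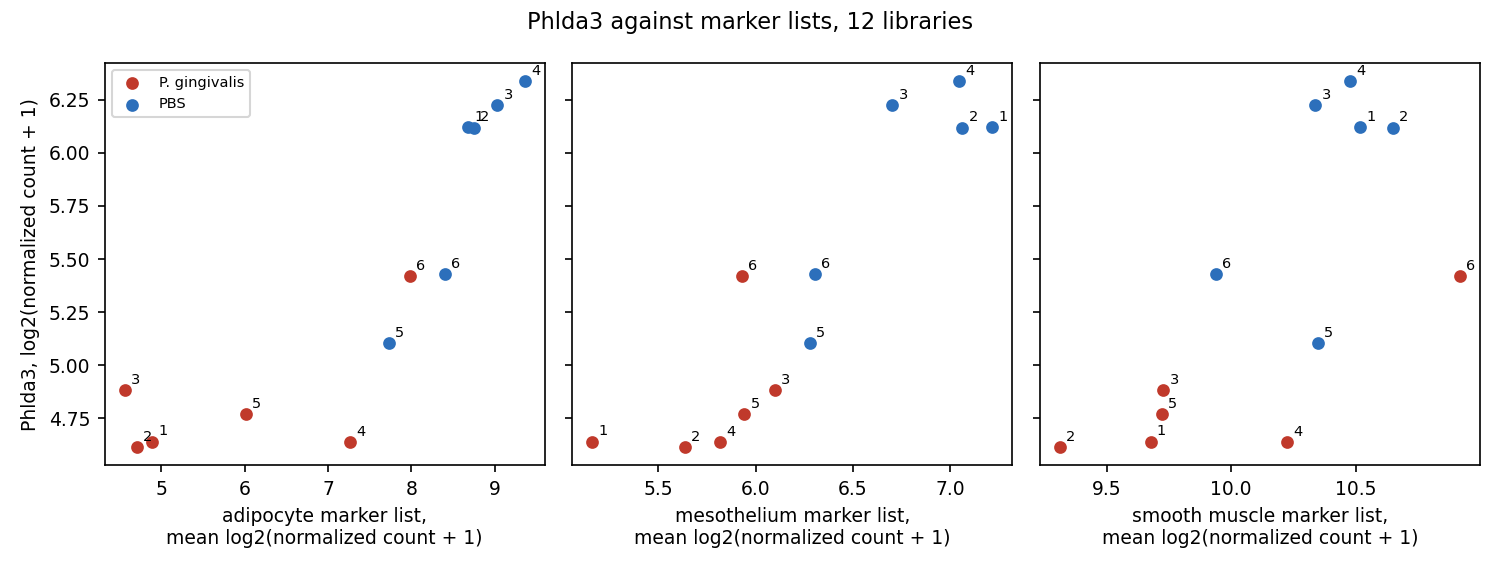
Phlda3 (y axis) against the mean of the adipocyte, mesothelial and smooth muscle marker lists (x axes), all in log2(normalized count + 1); points are the 12 libraries with their replicate numbers. The PBS replicates 1 to 4 lie highest on both axes of the adipocyte and mesothelial panels, and P. gingivalis replicate 6 lies beside PBS replicates 5 and 6 in the adipocyte panel.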

How the data were processed

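Polyadenylated RNA of 12 libraries was sequenced with an Illumina TruSeq kit, per the labels' protocols. HISAT2, Cufflinks, DESeq2, FastQC and the build GRCm38 appear in the submitters' processing notes, which give no roles or versions, and no source used here states the counting method, strand setting or annotation. Values in the deposited table are a normalized signal, each the reads of a gene over a size factor of its library; 100% of values were whole multiples of 1 step per library within 0.001 reads, which gave back the reads.

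P. gingivalis was set against PBS with limma 3.58.1 under R 4.3.3 (mean-variance trend) on log2(normalized count + 1), for genes with a mean of at least 10, two-sided, with Benjamini-Hochberg adjustment at 0.05 over all genes. The pseudocount makes log2 differences understate changes of weak genes. Counts were simulated for 15025 genes at the means and depths of this comparison. There limma called 83 of 100 genes altered 2-fold, 99 of 100 altered 4-fold and 12 unaltered genes. The altered genes were drawn only from those with a mean of at least 50, a cut that Phlda3 and Bbc3 did not reach over the 12 libraries. The simulation therefore gives no detection rate for weakly expressed genes such as these. edgeR 4.0.16 and DESeq2 1.42.0 were run on the recovered reads; on the same simulated data DESeq2 made 42 false calls. Within-group correlations used 100000 permutations within groups (all 2880 for 9 libraries). Positions and exon lengths came from GENCODE on GRCm38, promoters from RefSeq.

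The 8 genes and all lists were chosen with earlier results of these data known; the correlations with marker lists were added after the values were seen. Genes named beside the 8 were those with the 4 smallest p higher and lower among regulators and other targets, 2 in each direction of the AKT list, Trp53, Mdm4, Phlda1 and Phlda2, the leading markers of each list, and the 8 most like Phlda3 by each measure. Other fat, mesothelial, crypt and regulator genes are named as zeros, extremes, genes without overlap, genes below the filter or genes not found. Intervals of reads and the floor of 3 reads cover counting error only.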

Additional observations from a re-analysis of the deposited data

Results flagged for a closer look

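Of 124 groups of 6 values, 13 held a library far from the other 5, where chance gives about 1 in 20. P. gingivalis replicate 6 gave 10 of them and PBS replicate 6 gave 3. In P. gingivalis replicate 6, Phlda3 was 41.8, and the other 5 libraries of the group had 23.5 to 28.5. The genes picked for their likeness to Phlda3 stood out in the same library: Car5b at 46.1 against at most 19.7, Igfbp6 at 63.5 against at most 26.3, Slc7a10 at 20.9 against at most 1.20, Ghr at 644.6 against at most 462.6, Fggy at 30.4 against at most 15.3, Acss3 at 36.5 against at most 21.9 and Gpx8 at 87.9 against at most 47.1. They were selected for sharing the Phlda3 pattern, so these flags are not separate evidence. The fat cell gene Plin1 was 114 there against at most 41.8. The proximal small intestinal list mean was 7.06 log2 units there and 10.8 to 12.1 in the rest of the group. In PBS replicate 6, Fabp1 was 16938 against at most 1814 in the other PBS libraries, Lct, lactase, was 22535 against at most 8833, and the distal ileal list mean was 6.93 log2 units against 10.4 to 11.98.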

How the results depend on the processing

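The Phlda3 difference stayed between -1.22 and -0.97 over 22 alternatives to the pseudocount, filter, scaling, tool, weights and libraries used, -1.22 to -0.97 when each library was left out in turn; with a filter at a mean of 50 it was not tested. Bbc3 stayed below 0 and Trp53inp1 above 0 in every alternative that gave a value, while the differences of Cdkn1a (2 alternatives), Mdm2 (7), Ccng1 (5), Bax (3) and Sesn2 (2) changed sign, all near 0. Limma called 1 gene with a pseudocount of 5, 20 with sample weights and 1 without the 3 libraries with little Fabp6, and DESeq2 called 31. Leaving out 1 library gave 0 to 53 calls: 53 without P. gingivalis replicate 6, 7 without PBS replicate 5, and 1 each without P. gingivalis replicate 2 or PBS replicate 6. Other p53 targets and regulators had 0 calls in every alternative run. Of the 28 pair correlations, 1 passed with all libraries, 0 in the 9 libraries with high Fabp6, and 0 to 1 when a library was left out; Phlda3 and Cdkn1a passed without P. gingivalis replicate 1, and no pair passed in the other 11 leave-outs. The cause of these changes was not tested. With the title number as a replicate block limma called 0 genes and the Phlda3 difference was -1.06; same-numbered libraries did not deviate together (r from -0.54 to 0.08, with 0 of 12 libraries matching their own number best), so the number was not treated as a pairing. Low reads limit Bbc3 (11 to 23 per library) and Ptprv (6 to 21), and genes below the filter such as Phlda2 (0 to 3) were not tested.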

Other observations

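Apart from the group contrast, Mdm2 and Ccng1 were set beside markers of position along the gut. In the 9 libraries with high Fabp6, deviations of Mdm2 from its group means correlated with those of the proximal small intestinal list (r = 0.82, exact permutation p = 0.000347, adjusted p = 0.0222 over 64 relations; rho = 0.92, exact permutation p = 0.000347). Without the 2 libraries farthest from the Mdm2 median r was 0.87. Over all 12 libraries r was 0.79 (permutation p = 0.0197, adjusted p = 0.204; rho = 0.77, permutation p = 0.00141) and did not pass. Ccng1 correlated with the distal ileal list in the 9 libraries (r = 0.83, exact permutation p = 0.00174, adjusted p = 0.0556; rho = 0.92, exact permutation p = 0.000694, adjusted p = 0.0222), and r was 0.90 without the 2 libraries farthest from the Ccng1 median. Over all 12 libraries r was 0.30 (permutation p = 0.386, adjusted p = 0.651; rho = 0.57, permutation p = 0.0723). These relations were computed after the values were seen.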
